A study of Mus musculus with 8 samples.

Results

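The genes described here are 10 enzymes and helper proteins of de novo lipogenesis, the making of fatty acids from carbohydrate, measured by RNA-seq in mouse liver. They were taken by symbol from a fixed list, Acly, Acaca, Acacb, Fasn, Me1, Acss2, Thrsp, Mid1ip1, Pnpla3 and Aacs, and all 10 were found among the 23337 genes of the count files. All 8 samples were livers of C57BL/6 mice aged 12 weeks and kept on standard chow. Of these, 4 were WT and 4 carried the KO label with the genotype Hrd1-/-, and of each genotype 2 were fasted and 2 refed. The KO mice were HRD1Alb animals, in which Cre recombinase driven by the albumin promoter deletes floxed Hrd1, the gene of an E3 ubiquitin ligase of the endoplasmic reticulum that the files list as Syvn1. Albumin is made by hepatocytes, and liver cells in which this promoter has never been active keep the gene. The paper states that the deletion begins early in liver development. Fasting lasted overnight, and the refed mice had food again for 4 h after it. Neither the labels nor the methods say that the 2 samples of a group came from separate animals, so p-values measure the spread between these samples only. Values are normalized CPM, the counts of a gene scaled to a common library size with TMM factors, and comparisons between groups are log2 fold changes with their standard errors (SE) from edgeR's quasi-likelihood test, with p-values adjusted by the Benjamini-Hochberg method over 14328 tested genes. A gene was said to rise or fall where the adjusted p was under 0.05.

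De novo lipogenesis turns citrate that leaves the mitochondria into palmitate. ATP citrate lyase splits citrate into acetyl-CoA, acetyl-CoA carboxylase makes malonyl-CoA from it, and fatty acid synthase joins these units with reducing power from NADPH, part of which comes from malic enzyme. In liver the pathway is quiet during a fast and is switched on by insulin and glucose after a meal, largely through the transcription factors SREBP-1c and ChREBP.

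Syvn1, the deleted gene, was read first as a check of the labels. Fasted WT livers had 111 and 99.8 normalized CPM of Syvn1 and fasted KO-labelled livers 32.6 and 31.5. In refed liver WT had 637 and 305, and the KO-labelled libraries had 453 in replicate 1 and 132 in replicate 2. The refed library labelled KO replicate 1 therefore lay between both WT libraries, against its label, and the groups overlapped after refeeding. The log2 fold change of Syvn1 was -1.72 in fasted (SE 0.56, adjusted p = 0.17) and -0.69 in refed liver (SE 0.55, adjusted p = 0.391). Counts cover the whole gene, and the exons that the floxed allele loses were not used here. The feeding labels were read from 9 genes known to be induced by fasting. Of these, 6 fell on refeeding in WT and 7 in KO-labelled liver, where 1.41% and 5.05% of all tested genes fell. All 9 were lower in every refed than in every fasted library of the genotype. The share of all tested genes that were lower in every refed library is not given here, so that count has no matching background. The opposite pattern, higher in every refed than in every fasted library, held for 30.8% of all tested genes in WT and 29.2% in KO-labelled liver.

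The refed KO-labelled pair also stood apart in other ways. Its 2 libraries differed at least 2-fold in 22.4% of the tested genes, against 2.96% to 7.96% in the other groups, and this difference went with transcript length (Spearman rho = -0.59 across 12963 genes, which are not independent, against -0.11 to 0.04 elsewhere). Total counts per library were 40210576 to 49117080. Summed hepatocyte markers, all 5 detected, were 127500 to 139200 CPM in fasted WT, 82360 to 83870 in fasted KO-labelled, 101200 to 108300 in refed WT and 60530 to 98220 in refed KO-labelled liver. Summed macrophage markers, all 6 detected, were 65.8 to 76.1 and 73.6 to 75.7 CPM in fasted and refed WT liver, and 171 to 227 and 154 to 309 in KO-labelled liver. Summed lymphocyte markers, all 4 detected, were 13.1 to 16.5 with the KO label against 6.01 to 8.84 in WT. Summed stellate cell markers, all 5 detected and mostly Dcn, were 380.5 to 399 with the KO label against 164.5 to 314 in fasted WT. In refed liver they were 302 to 393 against 155 to 188. By fold change 4 of the 5 stellate markers were higher and 1, Rgs5, lower with the KO label in refed liver. Pancreatic acinar markers reached 0.509 at most. In bulk liver, fewer cells of a type and less RNA per cell cannot be told apart. Lipogenic genes are also used by fat cells, of whose 6 markers Lep and Retn had at most 0 and 1 counts in a library, Plin1 2, Adipoq 3 and Cfd 16. Adrb3, the other marker, had 1.71 to 6.47 CPM and fell on refeeding in KO-labelled liver (log2 -1.57, adjusted p = 0.0275) and with genotype in refed liver (log2 -1.42, adjusted p = 0.0354), and its part in the results was not tested.

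The starts of 5 of the genes are shown because they set genes with higher levels after refeeding, Fasn, Acly, Mid1ip1 and Thrsp, beside the 1 with lower levels, Acacb. Each sequence is the 160 bases before the transcription start in RefSeq on GRCm38.p6, 5′ to 3′ on the gene's own strand. Capitals mark a match, on either strand, to the CCAAT box (CCAAT), the GC box (GGGCGG) or the TATA box (TATAAA).
Fasn, chr11:120824548-120824707, minus strand: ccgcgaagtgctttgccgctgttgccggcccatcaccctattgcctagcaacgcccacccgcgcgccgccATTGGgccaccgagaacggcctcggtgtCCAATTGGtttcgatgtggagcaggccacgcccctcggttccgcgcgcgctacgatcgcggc
Acly, chr11:100528001-100528160, minus strand: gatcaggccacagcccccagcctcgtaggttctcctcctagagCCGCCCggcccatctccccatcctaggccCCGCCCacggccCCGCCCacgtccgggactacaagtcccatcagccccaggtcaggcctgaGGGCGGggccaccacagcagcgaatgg
Mid1ip1, chrX:10717205-10717364, plus strand: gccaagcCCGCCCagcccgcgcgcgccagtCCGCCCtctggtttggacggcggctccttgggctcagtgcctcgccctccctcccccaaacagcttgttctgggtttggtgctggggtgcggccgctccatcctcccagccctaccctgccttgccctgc
Thrsp, chr7:97417551-97417710, minus strand: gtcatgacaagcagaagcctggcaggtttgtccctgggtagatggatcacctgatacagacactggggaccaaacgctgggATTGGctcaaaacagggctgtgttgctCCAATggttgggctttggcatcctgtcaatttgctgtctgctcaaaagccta
Acacb, chr5:114165358-114165517, plus strand: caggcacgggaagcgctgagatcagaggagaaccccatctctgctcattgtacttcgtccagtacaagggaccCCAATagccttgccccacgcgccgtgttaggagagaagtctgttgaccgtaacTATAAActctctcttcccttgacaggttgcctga

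The Fasn window holds a CCAAT match on the minus strand 90 bases before the start and an overlapping pair, 1 on each strand, at 62 and 59 bases. Thrsp has CCAAT matches at 79 and 52 bases. Acly has 4 GC boxes and Mid1ip1 has 2, and neither has a CCAAT match. Acacb, the gene of the shown group that fell, has a CCAAT match at 87 bases and a TATA match at 34 bases. Its RefSeq start lies 18983 bases inside the gene as GENCODE M21 draws it, and that of Mid1ip1 lies 2352 bases inside, while those of Fasn and Acly fall on the first base of the gene. All 10 genes matched the RefSeq table, with 11 starts since Me1 has 2. In the 250 bases before these starts, CCAAT was found in 6 of 11 windows (33.8% of all 32851 promoters in the table), GGGCGG in 5 (32.7%) and TATAAA in 1 (12.4%). The letters TCACNCCAC, a form of the sterol regulatory element, were in 0 of the 11 (1.05% of all) and the E-box CACGTG in 0 (6.02%), which says only that these letters are not in these windows.

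Refeeding raised several steps of the pathway together in both genotypes. In WT liver Acly, Fasn, Mid1ip1 and Aacs rose and Acacb fell. In KO-labelled liver the same 5 genes passed the test in the same directions, and Acaca and Thrsp also rose. Of the 10 genes, 4 thus rose and 1 fell in WT liver, where 1.2% of all tested genes rose and 1.41% fell. In KO-labelled liver 6 rose and 1 fell, against 5.43% and 5.05% of all tested genes. Their median log2 fold change was 1.15 in both genotypes, beside 0.00 in WT and 0.02 in KO-labelled liver over all tested genes. Every refed sample was above every fasted sample for 7 of the 10 genes in WT liver (30.8% of all tested genes) and for 8 in KO-labelled liver (29.2%).

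**Figure D1:**
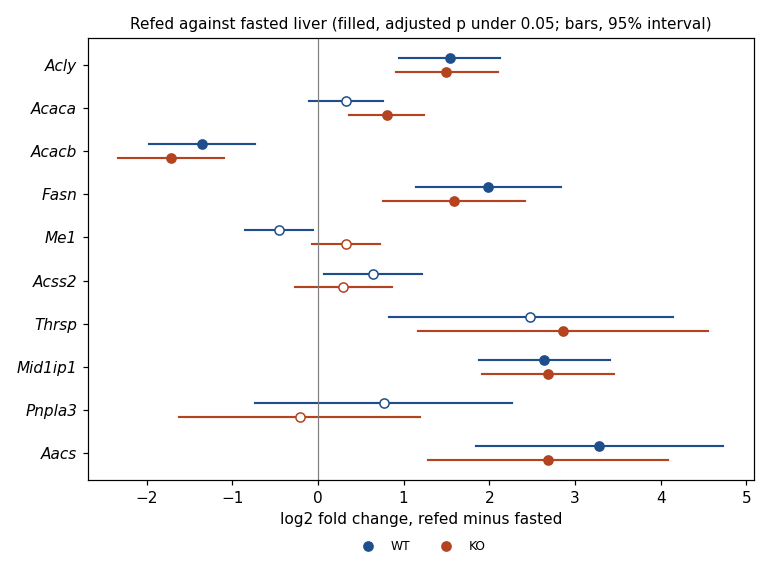
Log2 fold change of each lipogenic gene, refed minus fasted (horizontal axis), in WT (blue) and KO-labelled liver (orange), with 95% confidence intervals as bars and filled points where the adjusted p was under 0.05. Mid1ip1 sits at 2.64 and 2.68, Acacb at -1.35 and -1.71, and Me1 is the gene whose points lie on either side of 0 with the shortest bars.

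The plot of refeeding effects shows how wide the intervals are with 2 samples a group. In WT, without any 1 of the 4 WT or the 2 fasted KO-labelled libraries none of the 10 genes passed, where 0% to 0.211% of all tested genes did, and without either refed KO-labelled library 6 passed, Thrsp being added, where 17.0% to 17.2% of all genes did, against 2.61% with all libraries. In KO-labelled liver none passed without either fasted KO-labelled library (0.102% and 0.239% of all tested genes), 3 without either fasted WT library (4.43% and 4.66%), 5 without either refed WT library (3.05% and 3.10%), and 7 and 6 without refed KO-labelled replicates 1 and 2 (51.4% and 19.7%, against 10.5% with all libraries). With only the 4 KO-labelled samples none of the 10 passed, where 0% of 14183 tested genes did. The log2 fold changes kept their signs for the 7 genes in all these fits.

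Fewer of the 10 genes passed between the genotypes than with feeding. In fasted liver Me1 alone passed the test, lower in the KO-labelled libraries, where 0.433% of all tested genes fell and 0.921% rose. In refed liver none of the 10 passed, where 4.84% of tested genes fell and 7.09% rose. Unadjusted p-values were under 0.05 for 3 of the 10 in refed liver, Acacb, Me1 and Acss2, and for 4775 of all 14328 tested genes. In refed liver limma-trend called 0 of the 10 and DESeq2 1, Acss2, where 12.1% and 22.2% of all tested genes were called. Without refed KO-labelled replicate 1 Me1 passed in refed liver, where 52.8% of all tested genes did, and without replicate 2 Acacb, Acss2 and Thrsp passed, where 23.7% did, against 11.9% with all libraries. The median of the 10 log2 fold changes, KO-labelled minus WT, was -0.34 in fasted liver (all tested genes, -0.02) and -0.42 in refed liver (all tested genes, 0.04). Every KO-labelled sample was below every WT sample for 5 of the 10 in fasted liver (34.2% of all tested genes) and for 4 in refed liver (30.1%). Summed hepatocyte markers were lower and summed macrophage markers higher in the KO-labelled libraries of both feeding states. The hepatocyte sum was mostly Alb. By fold change 4 of the 5 hepatocyte markers were lower and 1, Tat, higher with the KO label in each feeding state. None of the 5 passed, where 1.35% of all tested genes did in fasted and 11.9% in refed liver. The part of these markers in the lipogenic values was not tested.

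**Figure D2:**
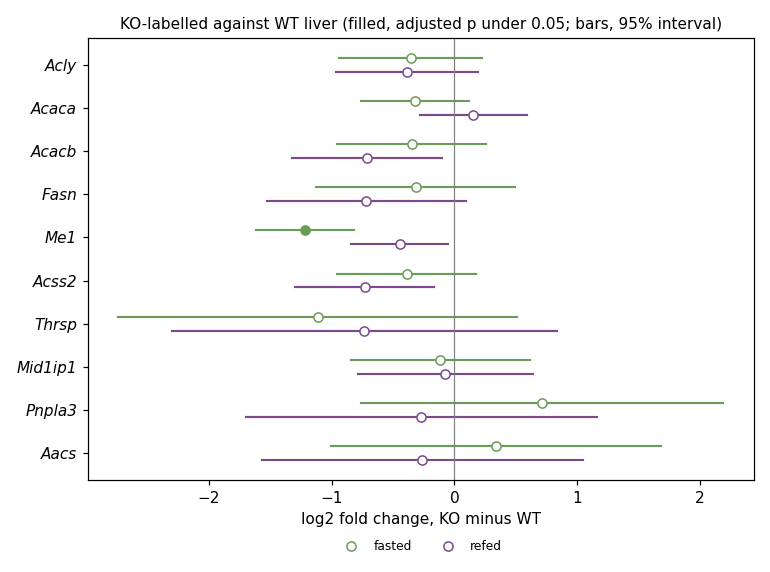
Log2 fold change of each lipogenic gene, KO-labelled minus WT (horizontal axis), in fasted (green) and refed liver (purple), with 95% confidence intervals as bars and filled points where the adjusted p was under 0.05. Me1 in fasted liver, at -1.22, is the filled point, and the interval of Thrsp in fasted liver runs from -2.74 to 0.51.

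The sign of the smaller genotype differences depended on scaling. With total counts in place of TMM, the median of all genes moved from -0.02 to 0.36 in fasted liver and from 0.04 to 0.26 in refed liver; the fasted libraries had TMM factors of 0.837 and 0.877 in WT and 1.11 and 1.13 in KO-labelled liver. Acly, Acaca, Acacb, Fasn and Mid1ip1 then had positive values in fasted liver, from 0.02 for Acly to 0.27 for Mid1ip1. Set against the median of all genes the values hardly moved: Acly was at -0.33 with either scaling, and Me1 at -1.20.

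Acly, ATP citrate lyase, supplies cytosolic acetyl-CoA from citrate (chromosome 11, 100476353 to 100528000, minus strand, GRCm38). It had 79.0 and 69.1 CPM in fasted WT, 55.05 and 60.6 in fasted KO-labelled, 168 and 261 in refed WT and 140.1 and 188 in refed KO-labelled liver. Refed and fasted samples did not overlap in either genotype, and the genotypes overlapped after refeeding. Acly rose 2.90-fold on refeeding in WT (log2 1.54, SE 0.25, adjusted p = 0.0338) and 2.84-fold in KO-labelled liver (log2 1.50, SE 0.25, adjusted p = 0.0161). The difference between the genotypes in this response was -0.03 on the log2 scale, with a 95% interval from -0.85 to 0.79.

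Acss2, the acetyl-CoA synthetase that makes acetyl-CoA from acetate (chromosome 2, 155517948 to 155585724, plus strand), had 60.05 and 62.0 CPM in fasted WT and 47.0 and 46.2 in fasted KO-labelled liver. After refeeding it had 74.6 and 115 in WT and 48.5 and 65.9 in KO-labelled liver. KO-labelled values were below WT values in each feeding state, and each refed pair lay above the fasted pair of its genotype. Acss2 did not pass in any comparison. Its genotype difference after refeeding was the largest in size among the 10 genes beside that of Thrsp, at -0.73 (SE 0.24, adjusted p = 0.0864). It passed with DESeq2 (adjusted p = 0.045) and with a replicate block and length offsets (adjusted p = 0.0396). In these fits 22.2% and 19.9% of all tested genes passed. Its adjusted p ran from 0.0396 to 0.262 in all fits with 8 samples or with the 4 of the comparison. Without refed KO-labelled replicate 2 its log2 value was -0.98.

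Me1, the cytosolic malic enzyme that makes NADPH while turning malate into pyruvate (chromosome 9, 86581371 to 86695953, minus strand), had the genotype difference that passed. Its levels were 126 and 106 CPM in fasted WT, 47.2 and 52.2 in fasted KO-labelled, 91.5 and 78.2 in refed WT and 64.7 and 59.8 in refed KO-labelled liver. KO-labelled samples were below WT samples in both feeding states. Me1 fell 2.33-fold in fasted KO-labelled against WT liver (log2 -1.22, SE 0.17, adjusted p = 0.0319). That call was lost without any 1 of the 4 WT or the 2 fasted KO-labelled libraries, at log2 values from -1.31 to -1.09. Fewer of all tested genes passed in those fits too. With total counts the Me1 call was also lost (log2 -0.84, adjusted p = 0.0621). Its adjusted p ran from 8.66e-08 to 0.0621 over the alternatives with 8 samples or with the 4 of the comparison. After refeeding the difference was -0.45 (SE 0.17, adjusted p = 0.116), which passed without refed KO-labelled replicate 1 (log2 -0.51, adjusted p = 0.0297, range over the libraries left out 0.0297 to 0.45), as did 52.8% of all genes there.

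Me1 was also the gene whose refed samples lay on opposite sides, all below the fasted samples in WT and all above them in KO-labelled liver. The log2 fold changes were -0.45 (SE 0.17, adjusted p = 0.245) in WT and 0.33 (SE 0.17, adjusted p = 0.224) in KO-labelled liver, neither of which passed. Their difference was 0.78, with a 95% interval from 0.22 to 1.34 (adjusted p = 0.561). Without refed KO-labelled replicate 1 it was 0.71 (adjusted p = 0.0299, against 0.212 to 0.735 in the fits with all libraries), in a fit where 33.4% of all tested genes passed.

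**Figure D3:**
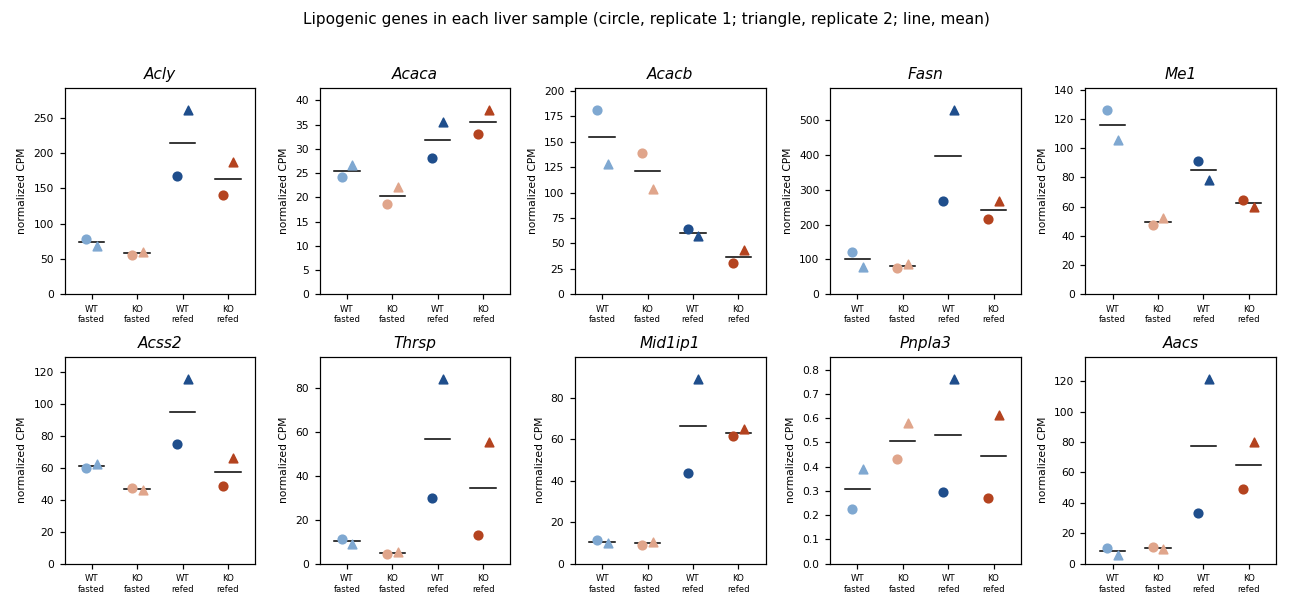
Normalized CPM (vertical axes, each from 0) of the 10 lipogenic genes in each of the 8 liver samples, by group; circles are replicate 1, triangles replicate 2 and lines the group means. Acacb is the gene with both refed groups below both fasted groups, and in refed WT liver the triangle lies above the circle for 8 of the 10 genes.

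The carboxylases that make malonyl-CoA had refeeding values of opposite sign. Acaca, whose cytosolic product feeds fatty acid synthesis (chromosome 11, 84129672 to 84401651, plus strand), had 24.2 and 26.6 CPM in fasted WT, 18.6 and 22.1 in fasted KO-labelled, 28.2 and 35.6 in refed WT and 33.0 and 38.01 in refed KO-labelled liver. Refed samples were above fasted samples in both genotypes, by a small step in WT. Acaca rose 1.74-fold in KO-labelled liver (log2 0.80, SE 0.19, adjusted p = 0.0395), and the WT value was 0.33 (SE 0.19, adjusted p = 0.462). The 2 responses differed by 0.47, with a 95% interval from -0.14 to 1.09. Offsets for transcript length took the KO-labelled value to 1.43, and the longest Acaca transcript in the annotation has 9513 bases.

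Acacb, the carboxylase at the mitochondrial surface whose malonyl-CoA holds back fatty acid oxidation (chromosome 5, 114146535 to 114250761, plus strand), went the other way. It had 181 and 128 CPM in fasted WT, 139 and 104 in fasted KO-labelled, 64.6 and 56.9 in refed WT and 30.5 and 43.7 in refed KO-labelled liver. Each refed value lay below each fasted value of both genotypes. Acacb fell 2.55-fold on refeeding in WT (log2 -1.35, SE 0.26, adjusted p = 0.0474) and 3.27-fold in KO-labelled liver (log2 -1.71, SE 0.27, adjusted p = 0.0135). Length offsets gave -1.27 (adjusted p = 0.114) and -1.07 (adjusted p = 0.106), within ranges over the alternatives with all libraries of 0.000285 to 0.142 and 8.36e-07 to 0.128. Between the genotypes Acacb was at -0.71 after refeeding (SE 0.26, adjusted p = 0.108), with no overlap between the groups, and at -0.15 with length offsets.

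Fasn, fatty acid synthase, which builds palmitate (chromosome 11, 120805846 to 120824547, minus strand), had 122 and 77.9 CPM in fasted WT, 74.5 and 86.1 in fasted KO-labelled, 268 and 529 in refed WT and 216.5 and 267 in refed KO-labelled liver. Every refed value was above every fasted value, and the upper refed KO-labelled library was just below the lower refed WT library. Fasn rose 3.99-fold in WT (log2 1.99, SE 0.36, adjusted p = 0.0391) and 3.01-fold in KO-labelled liver (log2 1.59, SE 0.36, adjusted p = 0.0351). Its genotype difference after refeeding was -0.72 (SE 0.35, adjusted p = 0.188), and -0.14 with length offsets. The difference between the responses was -0.40, with an interval from -1.55 to 0.74.

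Thrsp and Mid1ip1 encode related small proteins, Spot 14 and its homologue, that act on lipogenic enzymes, MID1IP1 by helping acetyl-CoA carboxylase form filaments. Thrsp (chromosome 7, 97412938 to 97417730, minus strand) had 11.3 and 9.08 CPM in fasted WT, 4.38 and 5.01 in fasted KO-labelled, 29.8 and 83.9 in refed WT and 13.0 and 55.3 in refed KO-labelled liver. The samples of each refed pair lay far apart, yet all refed samples were above all fasted samples. Thrsp rose 7.26-fold in KO-labelled liver (log2 2.86, SE 0.72, adjusted p = 0.0487), while the WT value of 5.58-fold did not pass (log2 2.48, SE 0.71, adjusted p = 0.134). The KO-labelled call was lost without refed KO-labelled replicate 2, at a log2 fold change of 1.47, and without any WT or fasted KO-labelled library. The genotype value of Thrsp in fasted liver was -1.11 on the log2 scale (SE 0.69, adjusted p = 0.452), with no overlap. That difference passed with only the 4 fasted samples (adjusted p = 0.0209, range over the alternatives 0.0209 to 0.504). In that fit 14.6% of all tested genes passed, against 1.35% with all libraries.

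Mid1ip1 (chromosome X, 10715013 to 10719690, plus strand) had 11.2 and 10.05 CPM in fasted WT, 9.09 and 10.5 in fasted KO-labelled, 43.8 and 89.1 in refed WT and 61.5 and 64.8 in refed KO-labelled liver. All 4 fasted values lay between 9.09 and 11.2, and both refed KO-labelled values lay inside the refed WT range. Mid1ip1 rose 6.25-fold in WT (log2 2.64, SE 0.33, adjusted p = 0.017) and 6.43-fold in KO-labelled liver (log2 2.68, SE 0.33, adjusted p = 0.00734), the smallest adjusted p of the 10 genes in each genotype. Without refed WT replicate 2 the WT value of Mid1ip1 was 2.04 on the log2 scale. Its response differed between the genotypes by 0.04, with an interval from -0.98 to 1.06.

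Aacs, acetoacetyl-CoA synthetase, which returns ketone bodies to lipid synthesis in the cytosol (chromosome 5, 125475814 to 125517410, plus strand), had the largest fold change in WT. It had 10.1 and 5.82 CPM in fasted WT, 10.8 and 9.28 in fasted KO-labelled, 33.3 and 121 in refed WT and 49.1 and 79.9 in refed KO-labelled liver. Refed and fasted values were far apart, and the refed WT pair was itself 1.86 log2 units apart. Aacs rose 9.73-fold in WT (log2 3.28, SE 0.62, adjusted p = 0.0432) and 6.42-fold in KO-labelled liver (log2 2.68, SE 0.60, adjusted p = 0.0352). Without refed WT replicate 2 the WT value of Aacs was 2.07 on the log2 scale and did not pass. The genotype difference was 0.34 in fasted and -0.26 in refed liver, and both groups overlapped.

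Pnpla3, a lipid droplet protein and lipase-family member that is known as a lipogenic target (chromosome 15, 84167837 to 84187236, plus strand), had few counts in these libraries. Its counts were 9 and 16 in fasted WT, 22 and 32 in fasted KO-labelled, 12 and 29 in refed WT and 16 and 28 in refed KO-labelled liver, where 3 counts are worth 0.0611 to 0.0746 CPM before scaling. The normalized levels were 0.224 and 0.389, 0.43 and 0.581, 0.296 and 0.762, and 0.271 and 0.614 CPM in that order. Refed and fasted values overlapped in both genotypes. No comparison of Pnpla3 passed, with a refeeding log2 fold change of 0.77 (SE 0.64) in WT and -0.21 (SE 0.60) in KO-labelled liver.

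Per kilobase of the longest coding transcript, which allows genes to be set side by side, the order of the levels changed with feeding. In fasted WT liver Me1 was highest at 35.2 ± 4.42 CPM per kilobase (SD, n = 2), followed by Acss2 at 20.8 ± 0.475, Acacb at 17.6 ± 4.29 and Acly at 16.7 ± 1.57, where the SD of Acacb reached both of its neighbours. Below them were Fasn at 9.95 ± 3.10, Thrsp at 7.97 ± 1.22, Mid1ip1 at 5.25 ± 0.402, and Acaca and Aacs at 2.67 ± 0.175 and 2.45 ± 0.93. In refed WT liver Acly was at 48.5 ± 14.9, Thrsp at 44.5 ± 30.0, Fasn at 39.6 ± 18.4, Mid1ip1 at 32.9 ± 15.8 and Acss2 at 32.4 ± 9.84, and these 5 did not differ beyond their spread. Me1 at 25.8 ± 2.87 and Aacs at 23.9 ± 19.2 came next, then Acacb at 6.91 ± 0.617 and Acaca at 3.35 ± 0.551. Pnpla3 was last in every group, at most 0.403 CPM per kilobase. In fasted KO-labelled liver Acss2 at 15.9 ± 0.196 and Me1 at 15.1 ± 1.07 stood side by side, and after refeeding Acly at 37.05 ± 7.63, Mid1ip1 at 31.2 ± 1.17 and Thrsp at 26.8 ± 23.4 did not differ beyond their spread.

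The 10 genes did not follow 1 profile. The 8 samples were either fasted or refed, so a difference between these states alone can give a high correlation. The Pearson correlation of log2 CPM with the mean profile of the 10 was 0.99 for Thrsp and 0.96 for Acly. For Fasn it was 0.95 and for Acss2 0.90. It was 0.87 for Mid1ip1, Acaca and Aacs, 0.39 for Pnpla3, 0.25 for Me1 and -0.58 for Acacb, each gene being part of the mean. Outside the list, among genes of at least 10 CPM on average, the 5 whose log2 CPM was most like the mean profile were Ovca2 (r = 0.98), Sc5d (0.95), Tmem86b (0.95), Slc9a3r1 (0.95) and Gckr (0.95). Sc5d is an enzyme of cholesterol synthesis. Gckr had 94.6 to 116 CPM in fasted and 125 to 193 in refed liver, and Sc5d 173 to 211 and 278 to 501.

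**Figure D4:**
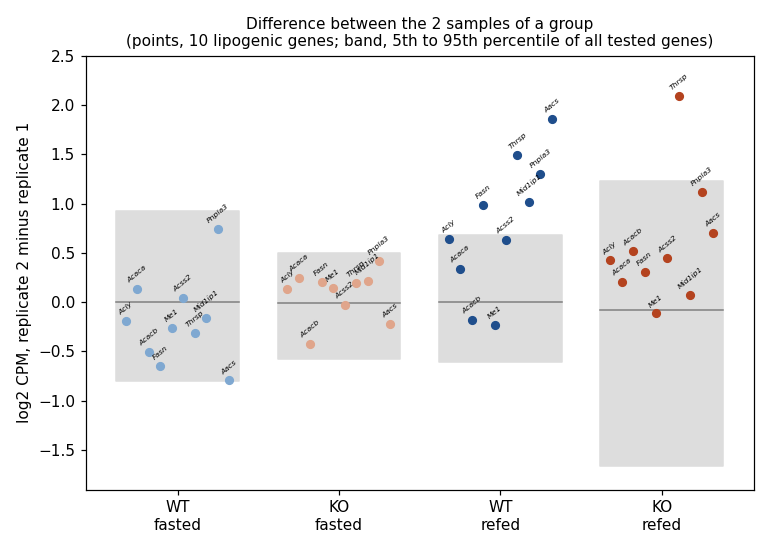
Log2 CPM of replicate 2 minus replicate 1 (vertical axis) for each of the 10 lipogenic genes in the 4 groups; the grey band runs from the 5th to the 95th percentile of all tested genes and the grey line is their median. In refed WT liver Aacs, Thrsp, Pnpla3, Mid1ip1 and Fasn lie above the band.

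Levels of several of the 10 genes differed between the refed samples of one genotype, as the plot of replicate differences shows. In refed WT liver 8 of the 10 genes were higher in replicate 2, with a median log2 difference of 0.81, a largest of 1.86 for Aacs, and a median of 0.00 over all tested genes, of which the middle 90% lay between -0.60 and 0.68. In refed KO-labelled liver 9 of the 10 were higher in replicate 2, with a median of 0.43 and a largest of 2.09 for Thrsp. Over all tested genes the median was -0.08 and the middle 90% ran from -1.66 to 1.23, and of the 10 genes Thrsp alone lay outside that range. The share of all tested genes that were higher in replicate 2 is not given for either pair. Fasted pairs were closer, with medians of -0.23 in WT and 0.17 in KO-labelled liver. Replicate numbers only name the samples, and no label gives a batch.

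Regulators of lipogenesis gave the following values, from a list of 11. Refeeding raised 2 and lowered 1 of them in WT (1.2% and 1.41% of all tested genes), and lowered 2 in KO-labelled liver (5.05%). Srebf1, the gene of SREBP-1c, had 32.6 and 29.4 CPM in fasted WT, 24.99 and 30.9 in fasted KO-labelled, 88.8 and 206.5 in refed WT and 66.6 and 61.95 in refed KO-labelled liver. It rose 4.76-fold in WT (adjusted p = 0.0336) and was at 2.30-fold in KO-labelled liver (adjusted p = 0.0733), and the refed genotype difference was -1.20 on the log2 scale (adjusted p = 0.0692). The test of the difference in response gave -1.05 (SE 0.50, adjusted p = 0.601). Insig1, which holds SREBPs in the endoplasmic reticulum and is itself their target, rose 7.50-fold in WT (adjusted p = 0.0336) and was at 2.91-fold in KO-labelled liver (adjusted p = 0.0706). Insig2, the paralog known to fall with insulin, fell 4.87-fold and 4.16-fold (adjusted p = 0.012 and 0.00638). With each of the 8 libraries left out in turn, the WT calls of Srebf1 and Insig1 passed in 2 fits and those of Insig2 in 4 and 6, with log2 fold changes of 1.52 to 2.73 for Srebf1 and 2.09 to 3.42 for Insig1 in WT over all alternatives.

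Mlxipl, the gene of ChREBP, was lower in refed KO-labelled than in refed WT liver. It had 278 and 306 CPM in refed WT and 144 and 83.7 in refed KO-labelled liver, after 224 and 182 in fasted WT and 115.5 and 149 in fasted KO-labelled liver. Mlxipl fell 2.56-fold with genotype after refeeding (log2 -1.36, SE 0.28, adjusted p = 0.0292), as did Scap, the escort of SREBPs, by 0.57 on the log2 scale (adjusted p = 0.0442), so 2 of 11 regulators fell there, beside 4.84% of all tested genes, and none passed in fasted liver. Both calls passed in 2 of the 8 fits with a library left out, at -1.81 to -1.02 for Mlxipl over all alternatives. Of 10 alternatives with 8 samples or with the 4 of the comparison, Mlxipl passed in 8 and Scap in 4. Scap was at -0.62 to -0.35 over all fits. Ppargc1b, a coactivator of SREBPs, fell on refeeding in KO-labelled liver (log2 -1.39, adjusted p = 0.0251).

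**Figure D5:**
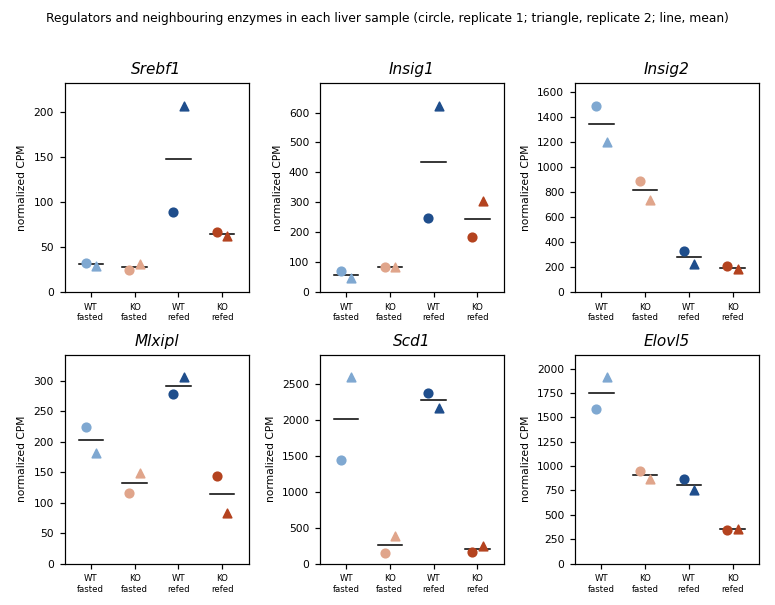
Normalized CPM (vertical axes, each from 0) of 4 regulators (Srebf1, Insig1, Insig2, Mlxipl) and 2 enzymes that act on the products of the pathway (Scd1, Elovl5) in each of the 8 liver samples; circles are replicate 1, triangles replicate 2 and lines the group means. Mlxipl is at 278 to 306 in refed WT and 83.7 to 144 in refed KO-labelled liver, with no overlap.

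Among 11 genes of substrate and NADPH supply, refeeding raised 0 in WT and 2 in KO-labelled liver, where 1.2% and 5.43% of all tested genes rose. After refeeding the KO-labelled libraries had 1 higher and 1 lower, where 7.09% and 4.84% of all tested genes were. Pklr, liver pyruvate kinase, and Pgd, an NADPH-making enzyme of the pentose phosphate pathway, rose in KO-labelled liver by 0.89 (adjusted p = 0.0444) and 0.92 (adjusted p = 0.0275). Pgd was 0.72 higher with genotype after refeeding (adjusted p = 0.0487) and Idh1, another source of NADPH, 0.67 lower on the same log2 scale. These genotype calls passed in 5 and 7 of 10 alternatives that left out no replicate, and each in 2 of 8 fits with a library left out. Slc25a1, the mitochondrial citrate carrier, passed in none, with refeeding values of 0.06 in WT and 0.43 in KO-labelled liver.

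Of 10 genes that work on the products of the pathway, 1 passed with refeeding in WT and 4 in KO-labelled liver (2.61% and 10.5% of all tested genes). Between the genotypes 1 passed in fasted and 4 in refed liver (1.35% and 11.9%). After refeeding 4 of them were lower in KO-labelled liver, Scd1, Elovl5, Fads2 and Agpat2, where 4.84% of all tested genes were. Scd1, the stearoyl-CoA desaturase, had 1439 and 2597 CPM in fasted WT, 145 and 378 in fasted KO-labelled, 2378 and 2170.0 in refed WT and 156 and 241 in refed KO-labelled liver. It fell with genotype by 2.95 on the log2 scale in fasted (SE 0.51, adjusted p = 0.0478) and by 3.52 in refed liver (SE 0.52, adjusted p = 0.0136), passing in 2 and 6 of the 8 fits with a library left out, and its refeeding values were 0.17 and -0.40 (adjusted p = 0.918 and 0.588). Elovl5, an elongase, fell on refeeding in both genotypes, by 1.11 in WT and 1.38 in KO-labelled liver, and by 1.21 with genotype after refeeding. In KO-labelled liver Elovl6, which lengthens palmitate, rose by 1.65 (adjusted p = 0.0106), Dgat2 rose by 0.64 and Fads2 fell by 1.06. Gpam, the first step of glycerolipid synthesis, passed in none, with 70.7 and 9.38 CPM in the refed KO-labelled pair.

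Of 6 genes that restrain acetyl-CoA carboxylase or its product, none passed on refeeding. Of all tested genes 2.61% did in WT and 10.5% in KO-labelled liver. Prkaa2, 1 of the 6 and a catalytic subunit of AMP-activated kinase, fell with genotype after refeeding (log2 -0.99, adjusted p = 0.0398), where 4.84% of all tested genes fell. None of 6 measured genes of mitochondrial fatty acid synthesis, a separate pathway, passed in any comparison, with median refeeding values of -0.04 in WT and 0.31 in KO-labelled liver. Of all tested genes, 0% to 11.9% passed in these comparisons. Among 5 tested paralogs of the 10 genes, Pnpla2, adipose triglyceride lipase, fell on refeeding by 1.37 in WT and 1.20 in KO-labelled liver. Of all tested genes 1.41% and 5.05% fell there. Me2, the mitochondrial malic enzyme, rose with genotype after refeeding (log2 1.25, SE 0.28, adjusted p = 0.0332), from 1.51 and 1.47 to 3.62 and 3.49 CPM, where 7.09% of all tested genes rose.

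Whether the response to refeeding differed between the genotypes was tested as an interaction across all genes. None of the 14328 genes passed (0% higher and 0% lower), while 1209 had an unadjusted p under 0.05, limma-trend called 0 and DESeq2 95. Of the 10 lipogenic genes Me1 alone had an unadjusted p under 0.05 there. For the other 9 the interval of the difference included 0. The narrowest of these, that of Acaca, reached from -0.14 to 1.09 and the widest, that of Thrsp, from -1.86 to 2.62. A difference of 2-fold in either direction could not be told from 0 for Thrsp, Pnpla3 and Aacs. For Fasn, Acacb, Acss2, Acaca and Mid1ip1 the interval held a 2-fold difference in 1 direction. Among the 9 genes only the interval of Acly, from -0.85 to 0.79, held neither.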

How the data were processed

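Liver RNA of 8 mouse samples was sequenced on an Illumina NextSeq 500, with 1 lane for each sample. The authors deposited raw counts of reads per gene symbol, 1 file for each sample, without normalization. Their methods name ERANGE for counting and limma for testing, whereas the submitters' processing notes name cutadapt, STAR, HTSeq, DESeq2 and mm10, with no versions, so which counter made the counts, and whether strand was used, is not settled here. Groups came from the sample titles.

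The counts covered 23337 genes and were tested with edgeR 4.0.16 (R 4.3.3). The filter of filterByExpr (minimum count 10, minimum total 15) left 14328 genes. TMM factors ran from 0.837 to 1.22, and a single quasi-likelihood model held all samples and all 4 group means (common dispersion 0.0573). The SE was the size of the log2 fold change over the root of the F statistic. Intervals cover the spread between samples, and 3 counts were taken as the floor. Positions came from GENCODE M21 on GRCm38, and transcript lengths covered 90.5% of the tested genes.

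The text names all 10 lipogenic genes, Syvn1, 6 preset genes of the pathway lists (Srebf1, Mlxipl, Insig1, Scd1, Slc25a1, Gpam; 1 other is not reported here and is left out of its list's counts), other listed genes that passed, and the 5 genes most like the mean profile. The genes and lists were chosen with earlier results of these data known. Samples of the same number were checked for pairing and correlated at r = 0.0161 to 0.179 over 6 pairs of groups, 1 of them over 0.1, so no pairing was used. Replicates differed by more than counting noise, with chi-square values per degree of freedom of 45.7 to 352.

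Alternatives were RLE scaling, total counts (added after seeing the data), no filter, at least 10 counts in every sample, only the 4 samples of a comparison, a replicate block, offsets for transcript length, both of these, limma-trend (limma 3.58.1), DESeq2 1.42.0, a 2-fold rule and each library left out. Where a library was left out, the lone sample was taken to vary like the other groups. Plots used matplotlib 3.10.9, and the fits were tested on simulated data. A comparison of the proteins was not made.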

Additional observations from a re-analysis of the deposited data

Results flagged for a closer look

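Me1 stood out because its refed samples lay on opposite sides of the fasted samples in the 2 genotypes. Every refed WT sample was below every fasted WT sample, and every refed KO-labelled sample was above every fasted KO-labelled sample. The difference between the responses, KO-labelled minus WT, was 0.78 on the log2 scale (SE 0.24), and edgeR's quasi-likelihood test of that difference gave an adjusted p = 0.561 over all tested genes. Without refed KO-labelled replicate 1 the difference was 0.71 (adjusted p = 0.0299, against 0.212 to 0.735 in the alternatives with all libraries), in a fit where 4878 genes, 33.4% of those tested, passed. Such an opposed pattern was found in 747 of 14328 tested genes, or 5.21%.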

How the results depend on the processing

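The number of the 10 lipogenic genes that passed depended on the fit. For refeeding in WT (5), a replicate block gave 2, where 2.13% of all tested genes passed. For refeeding in KO-labelled liver (7), only the samples of the comparison gave 0, where 0% of all tested genes passed. For genotype in fasted liver (1), only the samples of the comparison gave 2 and total counts gave 0, where 14.6% and 6.19% of all tested genes passed. For genotype in refed liver (0), DESeq2 gave 1, as did a replicate block with length offsets, where 22.2% and 19.9% of all tested genes passed. With each library left out in turn the counts ran from 0 to 6 for refeeding in WT, 0 to 7 for refeeding in KO-labelled liver, 0 to 1 for genotype in fasted, 0 to 3 for genotype in refed liver and 0 to 1 for the interaction. The lone sample of a group was then assumed to vary like the others, and the cause of the losses was not tested. The replicate numbers did not pair the samples (mean r = 0.0688), and the block left the counts of the other comparisons as they were.

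Signs turned as follows. With total counts, genotype in fasted liver became 0.065 for Acaca, 0.0264 for Acacb, 0.0247 for Acly, 0.0612 for Fasn and 0.268 for Mid1ip1. Mid1ip1 also turned in refed liver, to 0.143 with total counts and 0.0144 with limma-trend, and in the interaction, to -0.125 with total counts, -0.123 with length offsets and -0.0655 with the block and offsets. In the interaction length offsets gave 0.20 for Acacb, 0.18 for Acly, 0.18 for Fasn and -0.15 for Thrsp, and the block with offsets 0.187, 0.193, 0.224 and -0.0813 in that order. With libraries left out, genotype in refed liver ran from -0.91 to 0.95 for Aacs, -0.00615 to 0.33 for Acaca, -0.50 to 0.52 for Mid1ip1, -0.96 to 0.55 for Pnpla3 and -2.13 to 0.19 for Thrsp. The interaction ran from -1.24 to 0.61 for Aacs, -0.31 to 0.32 for Acly, -0.62 to 0.000787 for Acss2, -0.81 to 0.17 for Fasn, -0.37 to 0.64 for Mid1ip1 and -1.01 to 1.31 for Thrsp. Fasn in fasted liver ran from -0.57 to 0.0388, and Pnpla3 on refeeding from -0.0517 to 1.30 in WT and from -0.90 to 0.27 in KO-labelled liver. None of these passed with all libraries.

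Over all tested genes the calls were 374 for refeeding in WT, 1501 for refeeding in KO-labelled liver, 194 and 1709 for genotype in fasted and refed liver and 0 for the interaction. In that order DESeq2 called 1086, 2921, 1094, 3178 and 95. With only the samples of a comparison the first 4 were 1882, 0, 2033 and 0. Length offsets gave 851, 842 and 2672 for refeeding in WT and for genotype in fasted and refed liver, with the replicate block 803, 712 and 2577. Total counts gave 238 for refeeding in WT and 887 for genotype in fasted liver, no filter 323 for the latter and 2 for the interaction, and the block 119 for genotype in fasted liver. With total counts 840 of 887 calls in fasted and 1975 of 2258 in refed liver were higher with the KO label, against 132 of 194 and 1016 of 1709. Leaving out refed KO-labelled replicate 1 gave 7705 calls for genotype in refed liver and 4878 for the interaction, while leaving out a refed WT library gave 1 and 2 for genotype in refed liver and 0 for refeeding in WT and for the interaction. Pnpla3 gives no value with at least 10 counts in every sample, and the interaction none in the fits with only the samples of a comparison.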
